A study of Mus musculus with 24 samples.

Results

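The difference between the late and the early response of pancreatic stellate cells (PSC) to cancer cells was examined in the inverse co-culture model. The quantity was a difference of differences on the log2 scale, the co-culture effect at 72 h (co-culture minus control) minus the co-culture effect at 24 h, called the interaction here. It was taken from the 12 libraries of the inverse model out of 24 libraries in the series, chosen by sample title, with 3 libraries in each of 4 groups, namely 24 h control, 24 h co-culture, 72 h control and 72 h co-culture. All PSC carried the labelled genotype WT and came from young adult C57BL/6J mice, with several pancreata pooled in each isolation, and were used at the first or second passage. The KPC cancer cells were 1 line derived from 1 mouse that carried p48-Cre, which acts in the pancreas, and mutant Trp53. In co-culture the KPC cells grew on the underside of an insert membrane with 1 µm pores and the PSC on its upper side, whereas the controls were PSC cultured alone. KPC cells were on the membrane before the PSC, and the clock was started 24 h after PSC seeding, so both cell types had shared the insert for longer than the labelled 24 h or 72 h. All groups received the same serum-containing co-culture medium.

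PSC are the lipid-storing mesenchymal cells of the pancreas. When quiescent they hold vitamin A and triglyceride in cytoplasmic droplets, and when activated they lose the droplets, divide, take on contractile fibres and lay down extracellular matrix. In pancreatic ductal adenocarcinoma they are one source of cancer-associated fibroblasts, and tumour cells reach them by secreted growth factors and cytokines. PSC also change in culture on their own, so an interaction can come from a change in the co-cultured cells, from a change in the controls, or from both, and for that reason the change from 24 h to 72 h is given for each kind of culture.

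The promoter windows of 4 genes are shown first, because genes of 2 lists described below, mitosis and the interferon response, moved together. Each window is the 250 bases before a RefSeq start (build GRCm38.p6), written 5′ to 3′ toward the start. For each gene the window shown was taken from those that held the letters marked. In TOP2A (chr11:99024190-99024439, minus strand) and CDC20 (chr4:118437344-118437593, minus strand), both genes of mitosis, the capitals mark CCAAT boxes (CCAAT) and the core of the cell cycle homology region (TTTGAA), each on either strand.
TOP2A: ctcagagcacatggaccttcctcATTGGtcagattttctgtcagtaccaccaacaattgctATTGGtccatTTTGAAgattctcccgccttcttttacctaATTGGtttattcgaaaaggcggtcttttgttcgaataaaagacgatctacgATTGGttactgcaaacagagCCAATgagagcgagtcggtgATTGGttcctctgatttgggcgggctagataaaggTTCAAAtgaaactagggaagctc
CDC20: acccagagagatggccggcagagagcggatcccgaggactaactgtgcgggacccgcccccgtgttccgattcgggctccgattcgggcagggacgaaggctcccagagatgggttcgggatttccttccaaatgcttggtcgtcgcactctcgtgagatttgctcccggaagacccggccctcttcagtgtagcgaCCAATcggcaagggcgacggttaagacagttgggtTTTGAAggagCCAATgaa
In OAS1A (chr5:120907526-120907775, minus strand) and GBP3 (chr3:142559794-142560043, plus strand), both interferon-stimulated, the capitals mark the core of the interferon-stimulated response element (GAAA, any 2 bases, GAAA) on either strand, with 2 overlapping matches in each window.
OAS1A: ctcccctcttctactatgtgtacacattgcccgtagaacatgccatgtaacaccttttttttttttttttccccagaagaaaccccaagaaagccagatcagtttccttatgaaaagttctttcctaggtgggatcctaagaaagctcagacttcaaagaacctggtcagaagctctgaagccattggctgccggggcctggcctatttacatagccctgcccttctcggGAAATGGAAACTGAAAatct
GBP3: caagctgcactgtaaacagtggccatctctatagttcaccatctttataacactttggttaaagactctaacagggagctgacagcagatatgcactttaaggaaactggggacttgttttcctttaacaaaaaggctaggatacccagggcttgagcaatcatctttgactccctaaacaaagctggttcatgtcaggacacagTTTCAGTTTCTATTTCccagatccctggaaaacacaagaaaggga

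The libraries held 15932703 to 24798728 fragments (median 19348846), and 12552 to 13307 genes had more than 1 FPKM (fragments per kilobase of transcript, scaled to library depth). The 14 PSC and fibroblast markers summed to 21970 to 35460 FPKM, most of it from COL1A1, COL1A2 and COL3A1, whereas GFAP, a stellate cell marker, was at most 0.2375 FPKM and RGS5, a pericyte marker, at most 2.29. Among epithelial markers, KRT19 was at most 0.37 FPKM in the controls and above them in all 6 co-cultures, at 1.64, 11.6 and 2.53 at 24 h and 1.83, 1.17 and 3.11 at 72 h. KRT8 was at 0 FPKM in all 6 controls, at 0, 15.2 and 2.00 in 24 h co-culture and at 0.919, 0.088 and 3.14 in 72 h co-culture, and KRT18 was likewise at 0 in the controls and highest, at 11.7, in the 24 h co-culture library 2. CDH1, the epithelial cadherin, was at 0 in the controls and reached 0.948 in that library, and EPCAM and CLDN4 stayed at or under 0.123 FPKM throughout. LCN2 and MUC1, of the same marker set, were also present in the controls. LCN2 was above control in all 24 h co-cultures. At 72 h it was 28, 13.4 and 31 FPKM in controls against 13.3, 11.6 and 6.65 in co-culture. MUC1 was highest, at 6.37 FPKM, in the 72 h control library 1. The part of these transcripts in the results was not tested. Adipocyte markers (8 genes) summed to 218 to 315 FPKM in 24 h controls, 116 to 257 in 24 h co-culture, 478 to 987 in 72 h controls and 38.6 to 135 in 72 h co-culture. Macrophage and leukocyte markers (11 genes) summed to 69.2 to 83.9, 24.2 to 80.1, 123 to 230 and 50.3 to 79.9 FPKM in the same order, with the T cell gene CD3E at 0 in all libraries. The 24 h co-culture library 3 correlated across genes as closely with the 72 h co-culture libraries (mean r = 0.969) as with its own group (mean r = 0.968). In bulk RNA, fewer cells of a type and less RNA per cell cannot be told apart.

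**Figure D1:**
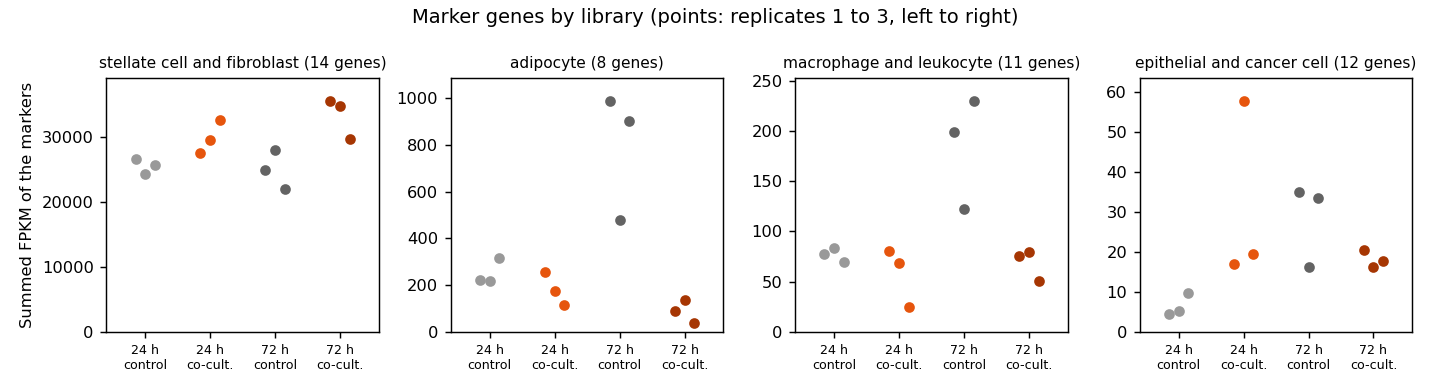
Summed FPKM of marker gene sets (vertical axes, linear) in each of the 12 libraries of the inverse model, with 3 points per group. Adipocyte and macrophage markers were highest in the 72 h controls, and the epithelial set reached its highest value, 57.7 FPKM, in the 24 h co-culture library 2. In the 72 h controls most of the epithelial sum came from LCN2.

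No gene was called for the interaction. In the fit of limma to log2(FPKM + 0.5), a scale that understates the change of low genes, 0 of 13722 genes passed an adjusted p of 0.05 (0%). The smallest adjusted p was 0.0595, and 22 genes (0.16%) passed 0.1. At an unadjusted p under 0.05 there were 1471 genes (10.7%), 431 with a positive interaction (3.14%) and 1040 with a negative one (7.58%), and 395 genes (2.88%) had an unadjusted p under 0.01. The median gene had a 95% interval of ± 0.56 around its interaction, that is a factor of 1.47 either way. The count of 0 depended on single libraries. It became 75 (17 positive, 58 negative) without the 24 h co-culture library 3, 43 without the 72 h control library 2, 20 without the 72 h co-culture library 2 and 2 without the 72 h co-culture library 3, and it stayed 0 without each of the other 8.

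More genes were called at 72 h than at 24 h, and more genes changed over time in control PSC than in co-cultured PSC. At 24 h 256 genes were called (1.87%), with 110 raised by co-culture (0.802%) and 146 lowered (1.06%). At 72 h 2384 were called (17.4%), with 626 raised (4.56%) and 1758 lowered (12.8%). When each library was rescaled to the median gene ratio the split at 72 h was 1057 higher and 924 lower. Without rescaling, the median gene lay at -0.16 in the 72 h effect, at -0.07 in the 24 h effect and at -0.09 in the interaction. From 24 h to 72 h, 883 genes rose (6.43%) and 908 fell (6.62%) in control PSC, 13.1% in all, whereas 46 rose (0.335%) and 263 fell (1.92%) in co-cultured PSC, 2.25% in all.

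Genes called at either time were sorted by their time course. Early genes were called at 24 h and had an interaction of the opposite sign at an unadjusted p under 0.05. Late genes were called at 72 h and had an interaction of the same sign as that effect at an unadjusted p under 0.05. Sustained genes were called at both times in the same direction. Their interaction had an unadjusted p not under 0.05 and a 95% interval within ± 1. By these rules 35 genes were early (19 higher, 16 lower), 130 sustained (48 higher, 82 lower) and 904 late (209 higher, 695 lower), and 374 higher and 1006 lower genes stayed unresolved. The sorting used the contrasts themselves, so the counts are a description. At the limits of the rules, SLC7A1 was late with an adjusted p of 0.0499 at 72 h and DOCK1 with an unadjusted interaction p of 0.04999, and JPH2 was early with an adjusted p of 0.0482 at 24 h.

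In late genes the control arm had the larger median change. The 209 late and higher genes had a median change over time of -0.84 in control and -0.07 in co-culture, and 136 of them fell in control (all genes 6.62%). The 695 late and lower genes had medians of 0.58 and -0.22, and 318 of them rose in control (all genes 6.43%). In co-culture 2 of the 209 rose and 23 of the 695 fell (all genes 0.335% and 1.92%). The late count ranged from 482 without the 72 h control library 1 (485 without library 3) to 1480 without the 24 h co-culture library 3.

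**Figure D2:**
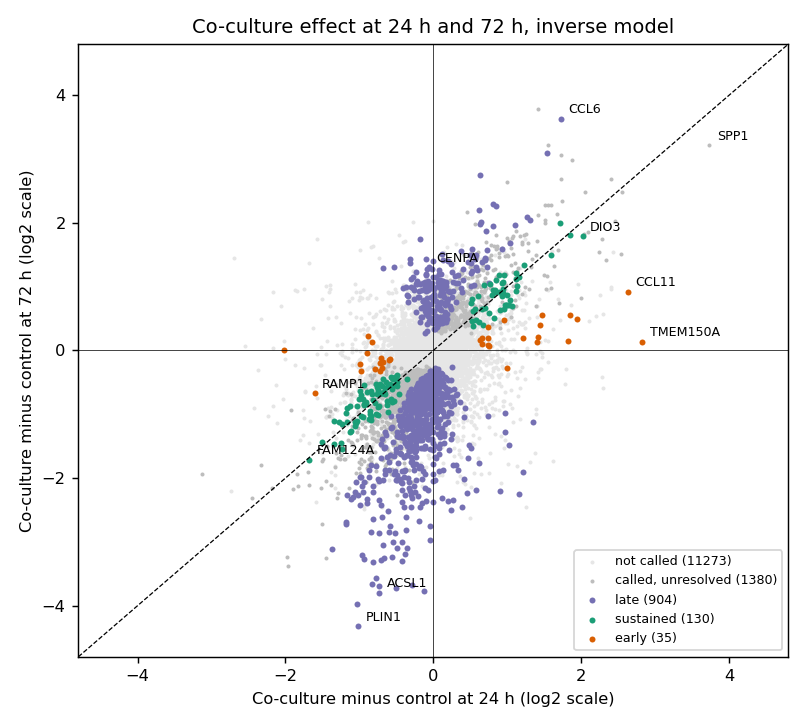
Co-culture effect at 24 h (horizontal axis) against 72 h (vertical axis), both on the log2(FPKM + 0.5) scale, for the 13722 genes tested, with points coloured by response and a diagonal of equal effects. The 904 late genes lie off the diagonal with the larger effect at 72 h, the 130 sustained genes lie along it, and the 35 early genes have the larger effect at 24 h.

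Genes of fat storage were late and lower. Many rose over time in control PSC. In co-cultured PSC none was called over time, though the list median was below 0. Of 25 adipocyte genes tested out of a list of 30, 24 were lower in co-culture at 72 h and 0 higher (all genes 12.8% lower), and 1 was lower at 24 h. The interaction was negative at an unadjusted p under 0.05 in 23 of 25 (all genes 7.58%), with a list median of -2.25 against -0.09 for all genes. Control PSC raised 15 of the 25 over time (all genes 6.43%, list median 1.43). Co-cultured PSC changed 0 (list median -0.63), near the share of all genes called over time there (2.25%). With each library left out in turn, 19 to 23 genes had a negative interaction at an unadjusted p under 0.05 and 22 to 25 were lower at 72 h. The 11 macrophage markers were also highest in the 72 h controls (sums given above), and their part in the result was not tested.

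PLIN1, the coat protein of the adipocyte lipid droplet, stood at 54.7, 51.2 and 84.5 FPKM in 24 h controls and 50.1, 31.5 and 17.7 in 24 h co-culture. At 72 h it stood at 343, 204 and 298 in controls and 13.2, 29.8 and 5.82 in co-culture. Every control was above every co-culture at both times. Groups did not overlap in 20.7% of all genes at 24 h and in 37.3% at 72 h. The gap for PLIN1 was wider at 72 h, where the effect was -4.32 ± 0.48 (SE; 20-fold lower, limma adjusted p = 0.000338). The interaction was -3.30 ± 0.69 (adjusted p = 0.125).

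DGAT2, which adds the last acyl chain in triglyceride synthesis, had the smallest interaction p. It was 38.5, 36.8 and 45 FPKM in 24 h controls, 43.8, 38.2 and 30.6 in 24 h co-culture, 188, 109.7 and 185 in 72 h controls and 27.6, 38.2 and 25.4 in 72 h co-culture. The groups overlapped at 24 h and were apart at 72 h, where all controls were above 100 FPKM and no co-culture was. The interaction was -2.26 ± 0.30 (adjusted p = 0.0595), with a change over time of 1.95 in control (adjusted p = 0.000731) and -0.30 in co-culture (adjusted p = 0.453).

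CITED4, a transcriptional co-regulator, was low but had the same shape. It was 1.05, 0.775 and 1.61 FPKM in 24 h controls, 0.848, 1.22 and 0.497 in 24 h co-culture, 11.7, 6.37 and 6.54 in 72 h controls and 0.28, 0.23 and 0 in 72 h co-culture, and its interaction was -3.39 ± 0.47 (adjusted p = 0.0595). Among protein-coding genes with an unadjusted interaction p under 0.01 and 1 sign in all 3 same-numbered sets of libraries, the 10 most negative interactions included, beside PLIN1 and CITED4, those of ADIPOQ, the hormone adiponectin (-3.64 ± 0.85), ACSL1, which activates long-chain fatty acids (-3.06 ± 0.51), CIDEC, which fuses lipid droplets (-2.94 ± 0.87), CDO1, which oxidises cysteine (-2.94 ± 0.67), CD36, a fatty acid transporter (-2.87 ± 0.59), FFAR2, a receptor for short-chain fatty acids (-2.82 ± 0.66), and A530016L24RIK (-2.78 ± 0.56). The genes named here were all called lower at 72 h, by 9.17-fold (FFAR2) to 20-fold (PLIN1), and none was called at 24 h.

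Enzymes of lipid turnover and synthesis shared this direction with smaller sizes. Among 20 triglyceride genes 13 were lower and 1 higher at 72 h (all genes 12.8% and 4.56%). A negative interaction at an unadjusted p under 0.05 was found in 14 (all genes 7.58%, list median -1.09). MGLL, the monoglyceride lipase, had an interaction of -2.58 ± 0.43, and PLIN2, the general droplet coat, -0.89 ± 0.23. LPL, the lipoprotein lipase, was the most abundant adipocyte gene and rose in control by 1.34 (adjusted p = 0.00884), with an interaction of -1.12 ± 0.38. G0S2, an inhibitor of lipolysis, was 2.27-fold lower at 72 h, but its interaction of -0.34 had a 95% interval of -1.28 to 0.60.

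Fatty acid synthesis genes were lower at 72 h in 8 of 18 and higher in 1 (all genes 12.8% and 4.56%), with 11 negative interactions (all genes 7.58%, list median -0.63). SREBF1, a master regulator of lipid synthesis, was 76.9, 77.8 and 87.3 FPKM in 24 h controls, 87, 83.3 and 81.9 in 24 h co-culture, 196, 149 and 162 in 72 h controls and 99.9, 107 and 85.1 in 72 h co-culture. The groups overlapped at 24 h and not at 72 h, and the gene rose by 1.06 in control (adjusted p = 0.000731), against 0.20 in co-culture (adjusted p = 0.357). MLXIPL, the carbohydrate-responsive partner of that programme, had an interaction of -2.24 ± 0.47. SCD1, which desaturates fatty acids, was called at neither time (0.77 ± 0.23 at 24 h and -0.38 ± 0.23 at 72 h), and its interaction was -1.16 ± 0.33.

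Among all genes 12.8% were lower at 72 h and 7.58% had a negative interaction. Fatty acid oxidation and peroxisome genes were lower at 72 h in 18 of 26 and higher in 0, and 9 had a negative interaction (list median -0.45). The 18 became 7 without the 72 h control library 1 or 3 and 10 without the 72 h co-culture library 1. The 9 became 5 without the 24 h control library 1, the 24 h co-culture library 1 or 2 or the 72 h control library 3, 16 without the 72 h control library 2 and 20 without the 24 h co-culture library 3. Sterol genes were lower at 72 h in 7 of 24 and higher in 0, with 8 negative interactions (list median -0.58, 5 to 13 genes over libraries left out, the 5 without the 24 h control library 2, the 72 h control library 1 or the 72 h co-culture library 3 and the 13 without the 72 h co-culture library 2). The 7 became 2 without the 72 h control library 1 or 3, 4 without the 72 h co-culture library 3 and 11 without the 72 h co-culture library 2. Among the sterol genes was HMGCS1, an early enzyme of cholesterol synthesis (-1.02 ± 0.28). CFD, the adipocyte complement factor adipsin, had -2.70 ± 0.59.

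Genes of mitosis were late and higher. Nearly all fell over time in control PSC, few were called lower over time in co-culture, and most were higher in co-culture at 72 h. Of 30 mitosis and G2/M genes tested, 18 were higher at 72 h and 0 lower (all genes 4.56% higher), 0 were called at 24 h, and 20 had a positive interaction at an unadjusted p under 0.05 (all genes 3.14%; list median 0.92). Over time 29 of 30 fell in control (all genes 6.62%, list median -1.37) and 3 of 30 in co-culture (all genes 1.92%, list median -0.50). The 18 became 5 without the 72 h control library 1 or 3, 8 without the 72 h co-culture library 1 and 9 without the 72 h co-culture library 3, and the 20 ranged from 13 to 28.

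CENPA, the centromere histone, was 28.5, 32.1 and 24.6 FPKM in 24 h controls, 21.9, 25.9 and 35 in 24 h co-culture, 6.61, 9.26 and 7.14 in 72 h controls and 18.9, 19.3 and 20.1 in 72 h co-culture. The groups overlapped at 24 h and lay apart at 72 h, where the effect was 1.30 ± 0.17 (2.47-fold, adjusted p = 0.000928). The interaction was 1.36 ± 0.24 (adjusted p = 0.078).

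TOP2A, the topoisomerase that untangles sister chromatids, was 77.8, 81.7 and 45 FPKM in 24 h controls, 41.6, 67.6 and 83.3 in 24 h co-culture, 18.9, 30.9 and 20.4 in 72 h controls and 54.4, 43.7 and 60.8 in 72 h co-culture. It too overlapped at 24 h and not at 72 h (2.27-fold, adjusted p = 0.015). CCNB1, the mitotic cyclin, had an interaction of 1.18 ± 0.30, and CDC20, an activator of the anaphase-promoting complex, 0.72 ± 0.24.

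By the same limits on p and sign, the 10 most positive protein-coding interactions included those of RAD51AP1, a recombination factor (1.84 ± 0.42), MXD3, of the MYC partner network (1.69 ± 0.33), the kinetochore genes CENPH (1.52 ± 0.42) and CENPS (1.42 ± 0.45), the spindle motor KIFC1 (1.39 ± 0.31), the mitotic kinase PBK (1.36 ± 0.31) and the helicase BLM (1.36 ± 0.34). These genes were all called higher at 72 h. DNA replication and G1/S genes moved less, with 4 of 32 higher at 72 h (all genes 4.56%), 0 lower and 9 positive interactions (all genes 3.14%, list median 0.52). The 4 ranged from 1 without the 72 h control library 3 or the 72 h co-culture library 3 to 8 without the 24 h co-culture library 1. The 9 ranged from 3 without the 24 h control library 1 or 2 or the 24 h co-culture library 1 to 16 without the 24 h control library 3. UHRF1, which maintains DNA methylation, had 1.03 ± 0.33, whereas PCNA, the sliding clamp, had 0.24 (95% interval -0.28 to 0.76) and RRM1, a ribonucleotide reductase subunit, 0.14 (-0.22 to 0.50). Cytosolic ribosomal protein genes fell over time in both cultures, 71 of 76 in control (all genes 6.62%) and 50 of 76 in co-culture (all genes 1.92%). At 72 h 31 were higher and 0 lower in co-culture (all genes 4.56% higher). The 31 became 6 without the 72 h co-culture library 1, 7 without the 72 h control library 2, 10 to 12 without the 72 h control library 1 or 3 or the 72 h co-culture library 3, and 19 or 20 without any 1 of the 24 h controls or the 24 h co-culture library 2. Scaling by the median of gene ratios gave 62 higher and 35 positive interactions, against 7 in the fit reported.

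The letters marked in TOP2A and CDC20 were common in the mitosis list. Among 26 mitosis genes matched by symbol, 22 (84.6%) held CCAAT in a window and 10 (38.5%) held TTTGAA, against 37.5% and 18.3% of all 27025 genes with a window. Among 20 matched adipocyte genes the counts were 7 (35%) and 2 (10%). A gene with several starts counted if any of its windows held the letters, and a match describes letters in these windows only.

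CCL6, a CC chemokine, was also late and higher. It was 0.425, 1.27 and 0.466 FPKM in 24 h controls, 6.03, 1.72 and 3.43 in 24 h co-culture, 0.781, 1.28 and 0.331 in 72 h controls and 14.3, 16.7 and 13.7 in 72 h co-culture. The groups did not overlap at either time and the gene was called at both (3.3-fold and 12.4-fold). In co-culture it rose by 1.99 over time (adjusted p = 0.0298), against 0.09 in control (adjusted p = 0.914), and the interaction was 1.91 ± 0.56. SDC4, the proteoglycan syndecan 4, was 1.57-fold higher at 24 h and 2.61-fold at 72 h, with an interaction of 0.73 ± 0.21.

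SLC16A3, a lactate exporter, rested on uneven libraries. It was 69.4, 61.4 and 57.3 FPKM in 24 h controls, 56.5, 63.7 and 242 in 24 h co-culture, 26.4, 35.4 and 32.8 in 72 h controls and 179, 105 and 161 in 72 h co-culture. The 24 h co-culture library 3 lay above all other libraries, and without it the interaction went from 1.58 ± 0.59 to 2.25 (limma adjusted p = 0.0227). TNFSF8, the CD30 ligand (8.49-fold higher at 72 h), and CAR6, a secreted carbonic anhydrase (6.74-fold), both had their highest value in the 72 h co-culture library 3.

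ATF4 targets of the amino acid response were higher at 72 h in 10 of 28 (all genes 4.56%) and lower in 0, with 8 positive interactions (all genes 3.14%, list median 0.69). The 8 ranged from 3 without the 24 h co-culture library 1 or the 72 h control library 3 to 18 without the 72 h co-culture library 2. Without the 72 h co-culture library 3 the median was 0.36 and the 10 became 5, without the 72 h control library 1 or 3 they became 2 or 1, and without the 72 h co-culture library 2 they became 18. ASNS, asparagine synthetase, was 66.2, 89 and 68 FPKM in 72 h controls and 118, 107 and 278 in 72 h co-culture, with library 3 far above the other two. ATF5, a transcription factor of the same response, had an interaction of 0.67 ± 0.19. PSMD10, a proteasome assembly chaperone, had the most positive interaction among protein-coding genes within the limits on p and sign given above (2.82 ± 0.84) without being called at either time. It was 3.65, 6.09 and 6.74 FPKM in 24 h controls, 1.44, 0.557 and 0.264 in 24 h co-culture, 0.429, 0.807 and 0.327 in 72 h controls and 0.283, 3.95 and 0.304 in 72 h co-culture, so that 1 library of 3 was high in the last group.

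**Figure D3:**
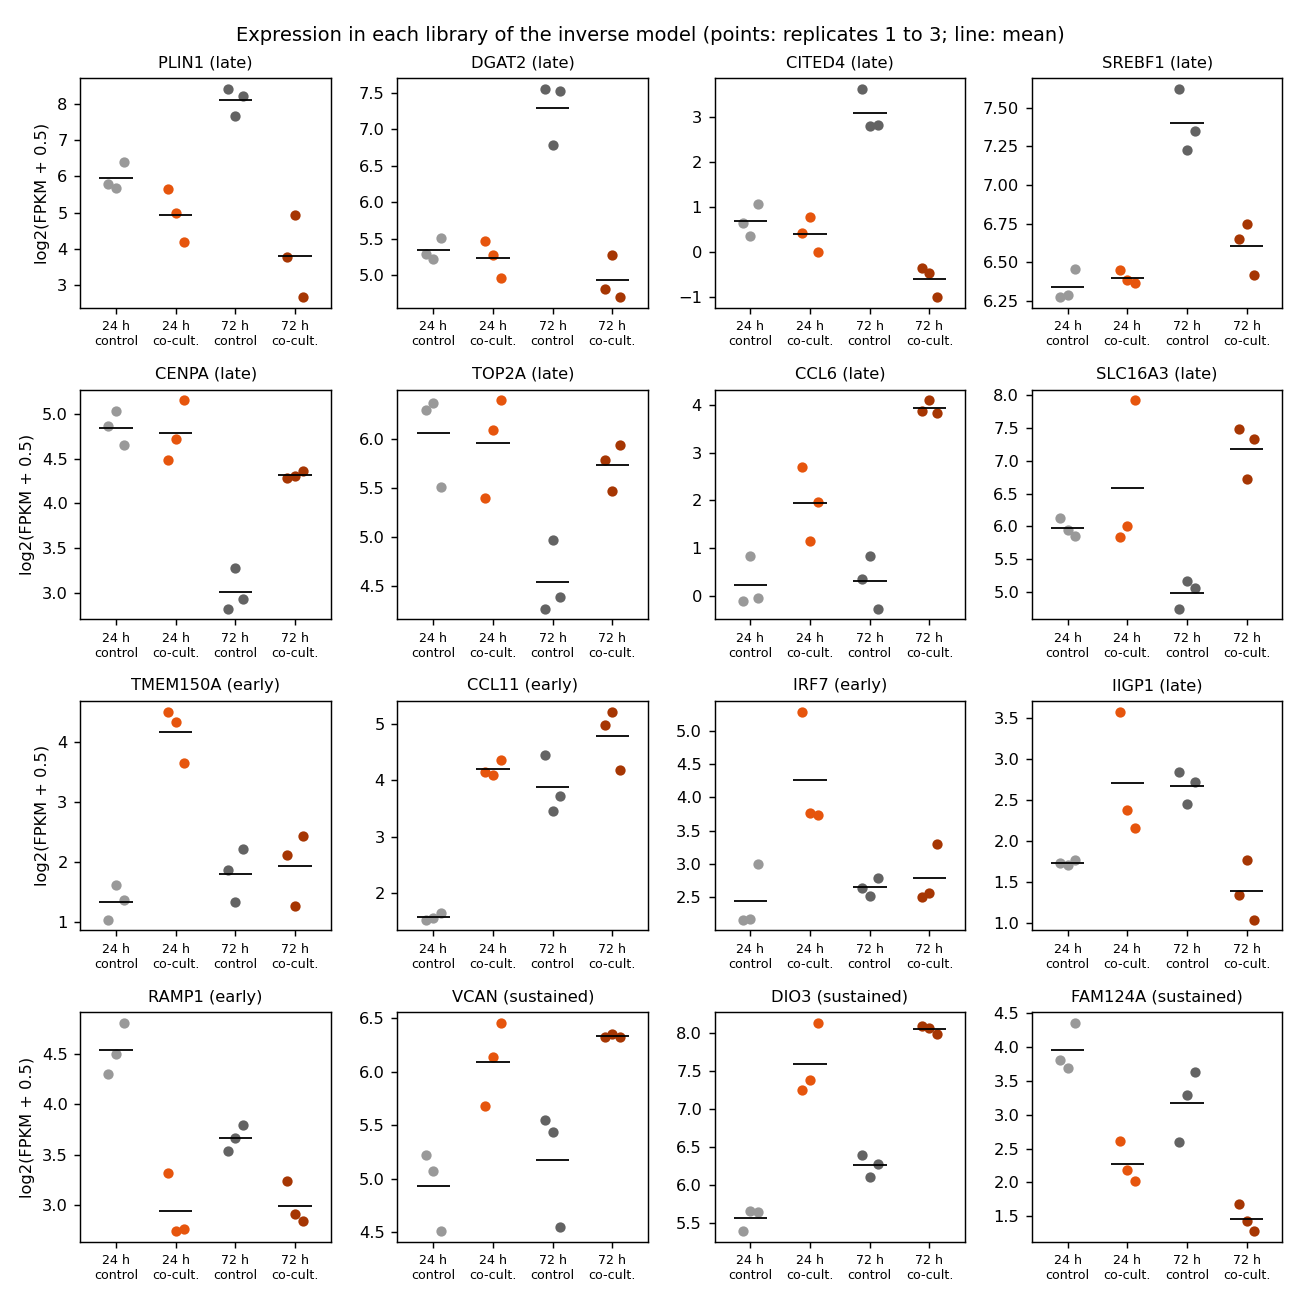
log2(FPKM + 0.5) of 16 genes in each of the 12 libraries of the inverse model, with 3 points per group and a separate vertical scale for each gene. PLIN1, DGAT2, CITED4 and SREBF1 were highest in the 72 h controls, CENPA and TOP2A were lowest there, and VCAN, DIO3 and FAM124A were apart from control at both times.

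Some interferon-stimulated genes were higher at 24 h and none at 72 h. These antiviral genes are switched on by interferons through a complex that holds STAT2 and IRF9. Of 28 tested, 4 were higher at 24 h and 0 lower (all genes 0.802% higher). At 72 h 0 were higher and 3 of 28 lower (all genes 4.56% and 12.8%), so the 3 were no more than the share of all genes. A negative interaction at an unadjusted p under 0.05 was found in 18 (all genes 7.58%, list median -0.88). Over time 4 of 28 fell in co-culture (all genes 1.92%, list median -0.86), while 0 changed in control (all genes 13.1%, list median 0.08). Without the 24 h co-culture library 1 the 4 became 0, the 18 became 11 and the median -0.63, and the 4 also became 0 without any 1 of the 24 h controls. The 18 became 10 without the 72 h co-culture library 1. The 3 lower at 72 h became 0 without the 72 h control library 1 or 3 or the 72 h co-culture library 1 or 3, and 5 without the 24 h co-culture library 1 or 3.

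ZBP1, a sensor of viral nucleic acid, was 1.7, 1.65 and 1.46 FPKM in 24 h controls, 12.3, 5.25 and 6.58 in 24 h co-culture, 4.54, 2.24 and 1.63 in 72 h controls and 3.79, 6 and 2.48 in 72 h co-culture. The groups were apart at 24 h (3.83-fold, adjusted p = 0.0227) and overlapped at 72 h (1.41-fold, adjusted p = 0.374), with an interaction of -1.44 ± 0.53. IRF7, a master factor of type I interferon, and OAS1A, an oligoadenylate synthetase, were chosen after their values were seen. IRF7 was 3.96, 4.03 and 7.5 FPKM in 24 h controls and 38.7, 13.1 and 12.9 in 24 h co-culture, led by library 1, and 5.72, 5.22 and 6.42 and 5.18, 5.44 and 9.38 at 72 h, where the groups overlapped. OAS1A was 2.66-fold higher at 24 h (adjusted p = 0.0446) and 1.16-fold at 72 h (adjusted p = 0.667).

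The immunity GTPases IIGP1 and GBP3 had the smallest interaction p of the list and were late and lower. IIGP1 was 2.82, 2.77 and 2.92 FPKM in 24 h controls, 11.4, 4.71 and 3.96 in 24 h co-culture, 6.67, 4.96 and 6.1 in 72 h controls and 2.05, 2.92 and 1.55 in 72 h co-culture. It was above control in all 24 h co-cultures and below control in all 72 h co-cultures, with an interaction of -2.25 ± 0.45. GBP3 had -2.51 ± 0.57 and was 2.81-fold lower at 72 h. B2M, the light chain of MHC class I, and IFI27, the most abundant members, were called at neither time and had interactions of -0.61 ± 0.26 and -0.58 ± 0.22. The response element core shown for OAS1A and GBP3 was present in a window of 14 of 26 matched interferon genes (53.8%), against 3.46% of all genes and 1 of 26 mitosis genes (3.85%).

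The largest early effects lay outside that list. TMEM150A, a membrane protein that regulates phosphoinositide synthesis, was 1.55, 2.56 and 2.09 FPKM in 24 h controls, 22.3, 19.6 and 12.1 in 24 h co-culture, 3.16, 2.02 and 4.14 in 72 h controls and 3.87, 1.91 and 4.89 in 72 h co-culture. The groups were far apart at 24 h (7.09-fold, adjusted p = 0.00196) and overlapped at 72 h. It fell by 2.22 over time in co-culture on the log2 scale (adjusted p = 0.0152), and the interaction was -2.69 ± 0.46 (adjusted p = 0.0723).

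CCL11, the eosinophil chemokine eotaxin, had a different time course. It was 2.38, 2.46 and 2.62 FPKM in 24 h controls, 17.2, 16.6 and 20.1 in 24 h co-culture, 21.2, 10.5 and 12.6 in 72 h controls and 30.9, 36.7 and 17.6 in 72 h co-culture. The effect went from 6.17-fold to 1.89-fold as the controls rose by 2.29 (adjusted p = 0.000824), against 0.59 in co-culture (adjusted p = 0.242).

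Some contractile genes were lower at 24 h, and in control PSC many fell over time. Of 28 smooth muscle contractile genes 6 were lower and 0 higher at 24 h (all genes 1.06% lower). At 72 h 2 were lower and 3 higher (all genes 12.8% and 4.56%), and 9 had a positive interaction (all genes 3.14%, list median 0.45). The 9 ranged from 3 without the 72 h control library 1 or the 72 h co-culture library 1 to 19 without the 72 h co-culture library 2. Over time 15 of 28 fell in control (all genes 6.62%, list median -0.75) and 1 of 28 in co-culture (all genes 1.92%, list median -0.26). The 6 became 1 with scaling by the median of gene ratios and 2 with quantile normalization. They became 0 without any 1 of the 24 h controls, and also without the 24 h co-culture library 1 or 3, 1 without the 24 h co-culture library 2 or the 72 h co-culture library 1, 2 without the 72 h control library 3 and 10 without the 72 h co-culture library 2. ACTA2, the α-smooth muscle actin of activated PSC, was 2835, 2790 and 2922 FPKM in 24 h controls, 1474, 1519 and 1253 in 24 h co-culture, 763, 1347 and 1137 in 72 h controls and 899.5, 563 and 1362 in 72 h co-culture. The groups did not overlap at 24 h, yet the gene was not called there (-1.01 ± 0.27, adjusted p = 0.0812), and they overlapped at 72 h. Control PSC lowered it over time (-1.43, adjusted p = 0.006), and the interaction was 0.76 (95% interval -0.07 to 1.59). TPM4, a tropomyosin, and MYH9, a non-muscle myosin, were late and higher (1.45-fold and 1.69-fold at 72 h). In the list, the 3 higher at 72 h became 0 without the 72 h control library 1 or the 72 h co-culture library 1. They became 1 without library 3 of either 72 h group and 5 without the 72 h co-culture library 2. The 2 lower became 9 without the 72 h control library 1 and 5 without the 72 h co-culture library 3. Without the 72 h control library 3 they became 0.

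RAMP1, a subunit of the calcitonin gene-related peptide receptor, was early and lower. It was 19.3, 22.1 and 27.6 FPKM in 24 h controls, 9.45, 6.16 and 6.27 in 24 h co-culture, 11.1, 12.2 and 13.4 in 72 h controls and 8.91, 7 and 6.65 in 72 h co-culture. The groups did not overlap at either time, but the effect went from 3.03-fold to 1.6-fold lower as the controls fell (-0.87, adjusted p = 0.0114). SLIRP, a mitochondrial RNA-binding protein, was 1.99-fold lower at 24 h and not called at 72 h (-0.21 ± 0.22).

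Sustained genes kept an effect of similar size. VCAN, the large proteoglycan versican, was 36.7, 33.2 and 22.2 FPKM in 24 h controls, 50.7, 69.9 and 87.2 in 24 h co-culture, 46.1, 42.9 and 22.9 in 72 h controls and 79.4, 81.1 and 79.4 in 72 h co-culture. The groups did not overlap at either time, the effects were 2.23-fold and 2.22-fold, and the 95% interval of the interaction was -0.81 to 0.80. CHST11, which sulphates chondroitin chains, was 1.92-fold and 2.09-fold higher (-0.45 to 0.69). The adaptor protein STAC2 was 3.27-fold and 3.99-fold higher (-0.18 to 0.75), the thyroid hormone deiodinase DIO3 4.06-fold and 3.46-fold (-0.80 to 0.34), and ENPP1, which makes pyrophosphate, 3.6-fold and 3.52-fold (-0.99 to 0.92). Among sustained and lower genes FAM124A was 3.21-fold and 3.28-fold lower (-0.86 to 0.79) and SH3BGR 2.54-fold and 2.76-fold (-0.90 to 0.67). The intervals leave room for a change between the times of up to nearly 1 on the log2 scale.

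Several matrix and cytokine genes had intervals too wide to be placed. SPP1, the secreted matrix protein osteopontin, was 13.3-fold and 9.26-fold higher (-1.58 to 0.54), TIMP1, an inhibitor of metalloproteases, 4.24-fold and 3.63-fold (-1.27 to 0.83), and FN1, fibronectin, 2.1-fold and 2.85-fold (-0.23 to 1.11). The cytokine IL6 was called at 72 h (3.25-fold) and not at 24 h (2.29-fold, adjusted p = 0.17), but its interaction of 0.51 (-0.72 to 1.73) did not show the effects to differ. HGF, the hepatocyte growth factor, was called at neither time (1.5-fold and 1.25-fold).

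**Figure D4:**
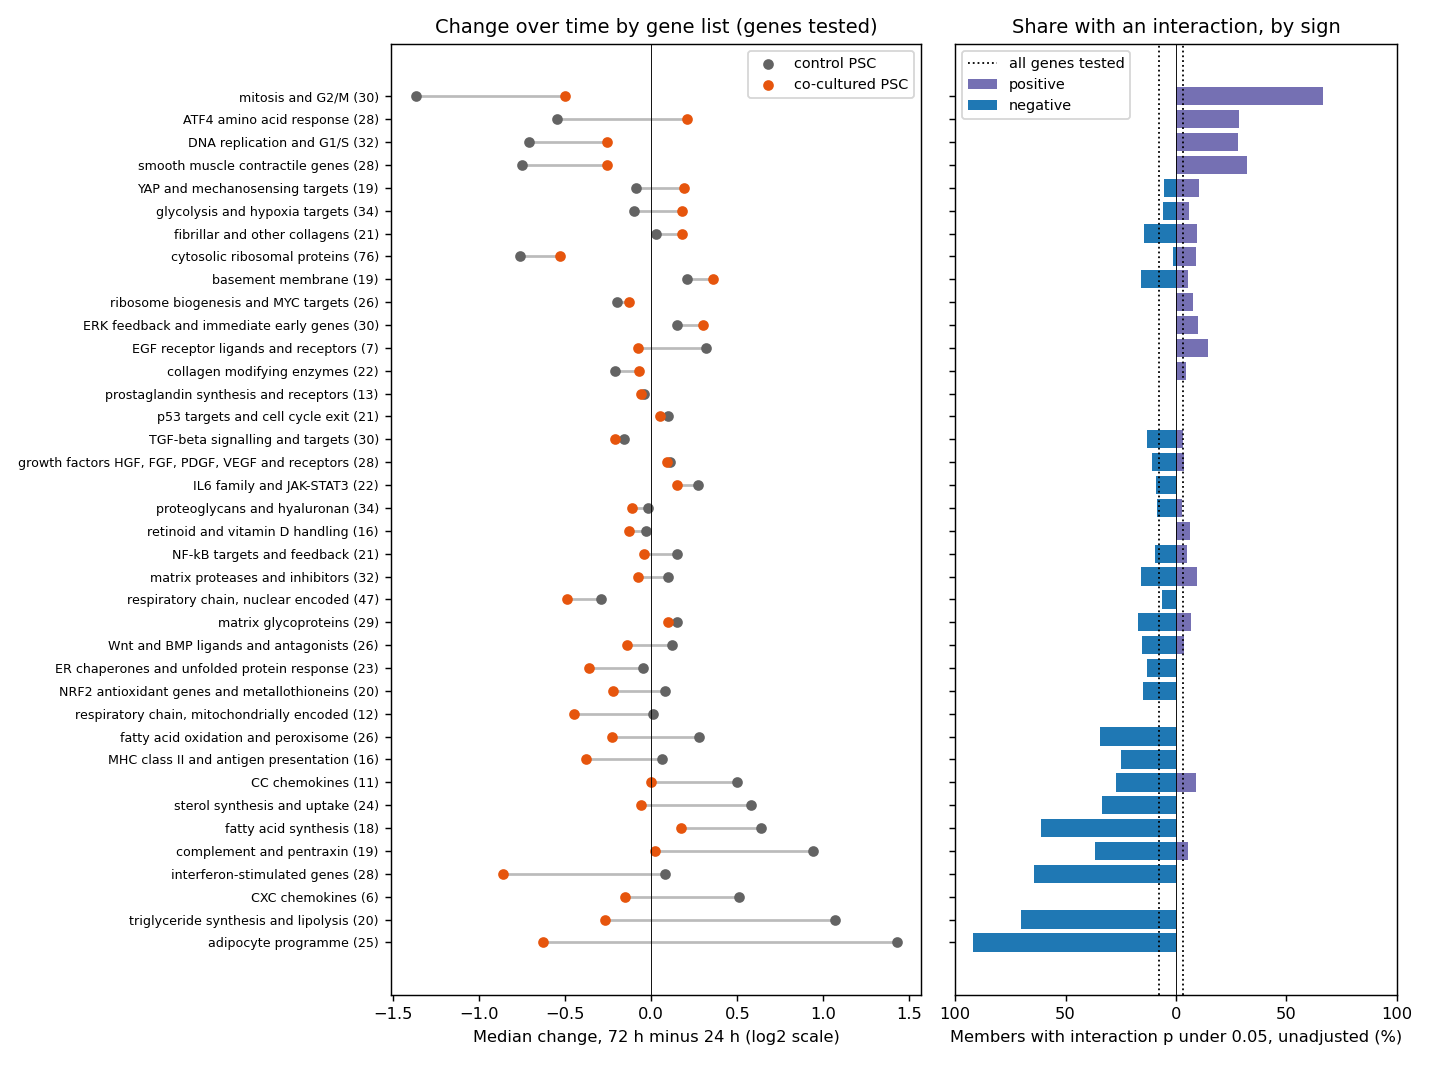
Median change from 24 h to 72 h in control and in co-cultured PSC on the log2 scale for the gene lists (left), and the percentage of each list with a positive or negative interaction at an unadjusted p under 0.05 (right), with lines at 3.14% and 7.58%, the shares among all genes tested. The adipocyte and mitosis lists had the larger median change in control (1.43 and -1.37), and the interferon list in co-culture (-0.86).

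Values are given for some of the other lists. Among all genes 4.56% were higher and 12.8% lower at 72 h. A positive interaction at an unadjusted p under 0.05 was found in 3.14% of all genes and a negative one in 7.58%. Glycolysis and hypoxia genes were higher at 72 h in 16 of 34 and lower in 2, while 2 had a positive and 2 a negative interaction (list median 0.26). Without the 24 h co-culture library 3, 18 had a positive and 2 a negative interaction (list median 0.58). The 16 became 10 and 8 without the 72 h control library 1 and 3 and 7 without the 72 h co-culture library 1. PFKFB3, which makes an activator of glycolysis, had the smallest interaction p of that list and was negative (-1.09 ± 0.34). MHC class II and antigen presentation genes had 0 positive and 4 negative interactions among 16 (list median -0.47). The 4 became 2 without the 24 h control library 1 or the 24 h co-culture library 1, and 8 without the 24 h co-culture library 3 or the 72 h co-culture library 2. Collagens had 2 positive and 3 negative interactions among 21 genes, and prostaglandin genes and p53 targets had 0 in either direction among 13 and 21. Of 19 complement and pentraxin genes 7 were negative and 1 positive (list median -0.69), and the 7 became 4 without the 24 h co-culture library 1 or the 72 h control library 1. CSF1R, the receptor of macrophage colony-stimulating factor, was 2.62-fold lower at 72 h with an interaction of -1.34 ± 0.35, and LYZ2, the lysozyme of myeloid cells, 2.46-fold lower with -0.76 (95% interval -1.90 to 0.37).

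The same measure in the standard model, with the KPC cells in the well beneath the insert, had 0 of 13694 genes called and 141 at an unadjusted p under 0.05 (1.03%). Its median 95% interval was ± 0.77, wider than in the inverse model. The fit held no term for the replicate number, although some genes differed by number in the standard model. ACTA2 was 5963, 3129, 4537 and 1194 FPKM in library 1 of 24 h control, 24 h co-culture, 72 h control and 72 h co-culture. In library 2 it was 824, 581, 476 and 771 FPKM in the same order. The part of such differences in the interval was not tested. Of the late and lower genes 79.4% had the same sign there and of the late and higher genes 69.7%, against 58.8% of all genes, with small medians of -0.17 and 0.12. The share was alike in unresolved genes, at 78.7% (lower) and 71.6% (higher), so it did not set late genes apart. It was 42.1% (higher) and 60% (lower) in early genes and 43.8% and 48.8% in sustained genes. The list medians in the standard model were -0.17 for adipocyte genes, 0.01 for mitosis and -0.39 for the interferon response. In a fit of all 24 libraries, the interactions of the 2 models differed in 0 of 14452 genes, with 169 at an unadjusted p under 0.05 (1.17%), so no response was shown to be particular to the inverse model.

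TMEM150A was the named gene with the widest gap between the models. The inverse interaction minus the standard interaction was -6.01 (95% interval -8.48 to -3.54), with an adjusted p of 0.909 in limma. In the standard model it was 2.27, 30.02 and 7.89 FPKM in 24 h controls, 3.94, 2.44 and 2.36 in 24 h co-culture, 3.51, 3.40 and 1.65 in 72 h controls and 19.8, 12.1 and 6.35 in 72 h co-culture. The direction was opposite to that of the inverse model, and 1 control library was high.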

How the data were processed

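PSC RNA (polyA, mouse) was sequenced from 24 libraries, 3 in each of 8 groups, of which the 12 of the inverse model were analysed in depth. The authors deposited FPKM values per gene for each library. According to the submitters' processing notes, CASAVA, HISAT2 2.0.5 and featureCounts 1.5.0-p3 were used with the GRCm38 (mm10) build. The study ran a count model, but here FPKM was used, so the test was limma.

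Genes above 1 FPKM in at least 3 of the 12 libraries were fitted as log2(FPKM + 0.5) on 4 group means (limma 3.58.1 in R 4.3.3, moderated test with intensity trend, two-sided, Benjamini-Hochberg over all genes tested, called at an adjusted p under 0.05). The co-culture effects, the changes over time and the interaction came from this 1 fit. The standard model was fitted alike, and the models were compared in a fit of all 24 libraries. Neither fit held a term for the replicate number. FPKM steps gave whole fragments (tolerance 0.02) in every library for 27262 of 28849 genes with a length (94.5%), and limma-voom on these fragments called 14 interactions among 12597 genes. Gene lists were described by counts and medians beside all genes, with no test of a list. Promoter windows came from RefSeq (GRCm38.p6) by gene symbol.

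The members and gene lists were chosen with earlier results of these data known. Named genes were the 10 most positive and 10 most negative interactions among protein-coding genes with an unadjusted p under 0.01 and 1 sign in all 3 same-numbered sets, the 3 largest effects of each response and direction with 1 sign in all 3 pairs, up to 4 members of each list (the 2 smallest interaction p and the 2 highest mean FPKM), and VCAN, CHST11, SDC4, FN1, ACTA2, SPP1, TIMP1, HGF, IL6 and PLIN1. Not every gene so taken is named, and some items are not reported here. The study calls the 3 libraries of a group biological replicates. Which PSC isolation each came from is not given in the sources used here, so p-values measure the spread between these libraries. Inverse libraries were made from 120 ng and standard libraries from 450 ng of RNA, so input and model cannot be told apart. Alternatives were other pseudocounts, filters, scalings, variance models, blocks and thresholds, and leaving out each library.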

Additional observations from a re-analysis of the deposited data

Results flagged for a closer look

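In 4 named genes the groups did not overlap at either time and co-culture lay on opposite sides of control at 24 h and 72 h. The difference was tested by the interaction in limma, and none passed an adjusted p of 0.05. CCNE2, the cyclin E2 of the G1/S transition, was 8.53, 7.53 and 6.6 FPKM in 24 h controls, 4.4, 6.55 and 6.17 in 24 h co-culture, 2.87, 3.81 and 3.46 in 72 h controls and 4.71, 4.93 and 6.02 in 72 h co-culture, with an interaction of 0.95 (limma adjusted p = 0.254). CDSN, the adhesion protein corneodesmosin, was 2.25, 2.18 and 2.16, 1.03, 1.65 and 0.927, 0.258, 0.913 and 0.891 and 1.44, 1.5 and 5.21 FPKM in the same order, with 1.99 (limma adjusted p = 0.264), and its highest value was in the 72 h co-culture library 3. IIGP1, the immunity GTPase described above, had -2.25 (limma adjusted p = 0.121). LCN2, the secreted iron-siderophore binder lipocalin 2, was 3.26, 3.27 and 7.53, 13.5, 11.6 and 10.7, 28, 13.4 and 31 and 13.3, 11.6 and 6.65 FPKM, with -2.48 (limma adjusted p = 0.123). Among all genes 20.7% had groups that did not overlap at 24 h and 37.3% at 72 h.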

How the results depend on the processing

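All 81 named genes were refitted under 23 other settings (where they passed the filter), and 73 kept the sign of their interaction in each. The 8 that did not had a 95% interval of the interaction that held 0 in the fit reported. With a pseudocount of 1, the median of gene ratios and quantile normalization ENPP1 became 0.092, 0.057 and 0.141 and FAM124A 0.03, 0.052 and 0.066, and with the latter 2 VCAN became 0.095 and 0.111. With 1 library left out the interaction ranged from -0.282 to 0.284 for ENPP1, -0.399 to 0.041 for DIO3, -0.318 to 0.208 for VCAN, -0.048 to 0.29 for CHST11, -0.32 to 0.197 for FAM124A, -0.402 to 0.067 for SH3BGR, -0.463 to 0.237 for TIMP1 and -0.053 to 0.937 for IL6.

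The number of called interactions, 0 in the fit reported, was 2 with a pseudocount of 1 or quantile normalization, 4 without a filter, 8 without the intensity trend, 14 with limma-voom and 22 at an adjusted p under 0.1. Without a filter 51 genes were higher and 56 lower at 24 h, 392 higher at 72 h and 50 sustained. Without the trend 84 were lower at 24 h and 82 sustained. Scaling by the median of gene ratios gave 1057 higher and 924 lower at 72 h, and quantile normalization 977 and 914. In the fit of all 24 libraries the counts were 710 interactions at an unadjusted p under 0.05, 5 higher and 6 lower at 24 h, 201 and 696 at 72 h, 1 early, 7 sustained and 315 late. Limma-voom gave 54 early genes. At an adjusted p under 0.1 there were 218 higher and 299 lower at 24 h, 2727 lower at 72 h, 72 early and 251 sustained. In the standard model 3 interactions were called without a filter and 1 without the trend, and 1 difference between the models was called without a filter. The cause of these changes was not tested.

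Leaving out 1 library at a time gave 0 to 75 called interactions, 1003 to 2405 at an unadjusted p under 0.05, 28 to 200 genes higher and 12 to 241 lower at 24 h, 301 to 723 higher and 768 to 2127 lower at 72 h, 9 to 69 early, 17 to 214 sustained and 482 to 1480 late. The 24 h calls fell most without the 24 h control library 3 and the 72 h calls most without the 72 h control library 3.

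Same-numbered libraries were not paired, and shared deviations by number were examined in the inverse model only. There the deviations from the group means correlated at -0.14 to 0.18, with 3 of 18 pairs over 0.1, and 0 of 12 libraries correlated best with its own number. With the replicate number as a block, 0 interactions were called in the standard model and 0 differences between the models. In the comparison of the models, the block gave same-numbered libraries of both models a shared shift. Such a block cannot remove a shift by number that only the standard model holds. The part of such shifts in the comparison was therefore not tested by that count. In the inverse model fitted alone, a block by replicate number gave 0 called interactions and 1515 with an unadjusted p under 0.05. It gave 112 higher and 107 lower at 24 h, and 566 and 1561 at 72 h. With a replicate block within each time the counts were 45 and 23 at 24 h, 378 and 986 at 72 h, 18 early, 29 sustained and 599 late.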
